A study of Mus musculus with 6 samples.

Results

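The genes described here make microRNAs and carry them to their targets. They are Drosha, Dgcr8, Xpo5, Dicer1, Tarbp2 and Prkra, which process and export the precursors, and Ago1, Ago2, Ago3 and Ago4, which hold the finished microRNA. The 10 genes were chosen by symbol, for their known place in the pathway, with earlier results of these data known. All 10 were found under their current symbols among the 24346 rows of each library. The series asks what changes in the mouse brain when genes for miR-124a, a microRNA abundant in neurons, are lost. It has 6 stranded mRNA libraries, 3 per group, from brain labelled embryonic day 17.5. The libraries labelled DKO (CKO in the file headers, unexplained) come from embryos whose genotype is given as miR-124a-1/2 DKO, a double knockout. The libraries labelled control come from embryos with the genotype miR-124a-1+/-, so neither group is wild type. How the alleles were made, the strain, the sex and the miR-124a-2 state of the controls are not given. Values are FPKM, fragments scaled by transcript length and by the size of the library. Comparing levels of different genes therefore rests on the transcript lengths the authors used, which are not given. The longest annotated coding transcripts of the 10 genes run from 1523 bases (Tarbp2) to 15595 (Ago3).

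A microRNA gene is copied into a long primary transcript that folds into hairpins. In the nucleus the Microprocessor cuts each hairpin out: Drosha is the RNase III enzyme, and Dgcr8 binds the hairpin and guides the cut. Exportin-5, the product of Xpo5, carries the hairpin to the cytoplasm, where Dicer, the product of Dicer1, cuts off the loop with help from the RNA-binding proteins TRBP (Tarbp2) and PACT (Prkra). An Argonaute protein keeps a single strand and uses bases near its 5′ end, the seed, to find target mRNAs, and of the mammalian Argonautes Ago2 is best known for cutting a target itself. Mutant mice show that Dicer1 and Dgcr8 are needed for neurons and for the retina to develop and survive.

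The libraries carry limits that touch every value below. Rows of the host transcripts of the deleted microRNAs did not set the groups apart: Mir124a-1hg measured 464 to 510 FPKM in the libraries labelled DKO and 420 to 528 in those labelled control (exact permutation p = 0.80). The row 2610100L16Rik, the host of miR-124a-2, measured 69.9 to 98.0 against 80.3 to 115 FPKM (exact permutation p = 0.50). Since it is not given how the alleles were made, these host rows cannot show whether the microRNAs were lost. Marker genes did not match the labelled tissue and age, in either group. The summed level of 7 rod photoreceptor markers was 12887 to 14766 FPKM, against 11.0 to 13.6 FPKM for 6 markers of cortical neurons and 1.03 to 2.57 FPKM for 5 markers of dividing cells. With these markers and headers, it cannot be told from the files whether the values come from the labelled embryonic brains. Every comparison below is one between libraries as labelled. In mixed tissue, fewer cells of a type and less RNA per cell cannot be told apart. The titles number 3 brains per group without saying how they were taken, so p-values measure the spread between these libraries, which may be technical. Relative to DKO replicate 1, the steps between low values gave depths of 0.956 to 1.24.

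Some sequences place these genes. Dgcr8 (GRCm38 chromosome 16, 18253948 to 18289246, minus strand) holds 2 annotated microRNA hairpins within its own exon sequence, and the Microprocessor is known to lower Dgcr8 mRNA by cutting such hairpins. The hairpin of miR-1306 (18284239 to 18284317) lies in the Dgcr8 coding sequence and that of miR-3618 (18284550 to 18284637) in the untranslated part before it, by GENCODE M21. The mature strands, from RefSeq on GRCm38.p6, are given 5′ to 3′ with the seed, bases 2 to 8, in capitals:
miR-1306-5p: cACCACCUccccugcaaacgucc
miR-1306-3p: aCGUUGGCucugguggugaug
miR-3618-5p: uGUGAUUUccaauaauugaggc
miR-3618-3p: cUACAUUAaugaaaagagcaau
The 4 strands have 4 different seeds. The rows Mir1306 and Gm24572, which stand for these hairpins, are listed at 0 in all 6 libraries. An mRNA library captures such short RNAs poorly, so these zeros say nothing of whether the hairpins were cut.

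Ago3, Ago1 and Ago4 sit in a row on the minus strand of chromosome 4, within 201769 bases, while Ago2 lies alone on chromosome 15 (73095844 to 73184935). In GENCODE M21 Ago3 spans 126331704 to 126429556, Ago1 spans 126435012 to 126468583 and Ago4 spans 126489541 to 126533472, with gaps of 5455 and 20957 bases. These neighbours differ in level, so their start regions are shown, each running from 100 bases before a RefSeq start to 20 bases after it. RefSeq gives Ago1 a pair of start regions, and the one shown begins at the GENCODE start of the gene. Capitals mark GGGCGG, the core of the GC box that Sp1-type factors bind, or its reverse complement CCGCCC, overlapping matches included:
Ago3, chr4:126429523-126429642, minus strand: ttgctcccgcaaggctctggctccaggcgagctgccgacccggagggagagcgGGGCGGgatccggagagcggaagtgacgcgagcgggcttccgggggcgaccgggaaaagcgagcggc
Ago1, chr4:126468564-126468683, minus strand: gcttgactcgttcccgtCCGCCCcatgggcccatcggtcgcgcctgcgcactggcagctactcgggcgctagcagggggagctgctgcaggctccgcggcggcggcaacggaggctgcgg
Ago4, chr4:126533439-126533558, minus strand: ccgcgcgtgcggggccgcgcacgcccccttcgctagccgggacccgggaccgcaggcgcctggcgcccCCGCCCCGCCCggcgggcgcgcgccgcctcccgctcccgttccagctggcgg
In the full windows of 300 bases (250 before the start and 50 after), read on both strands and with overlaps counted, GGGCGG occurs 5 times for Ago3, 2 times for Ago1 and 5 times for Ago4. Of 32851 such mouse windows, 35.7% hold it. TATAAA, the letters of a TATA box, occurs in 13.6% of all windows and in none of these 3. Their G+C content was 74.7%, 75.7% (73.0% at the other Ago1 start) and 83.3%, against a median of 52.7% over all windows. A match is a description of the letters and no sign that a factor is bound.

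All 10 genes were measured well above the floor in all 6 libraries, and their levels separated at 4 places in the order. Drosha was the highest, with a median over the 6 libraries of 29.5 FPKM, and Xpo5 followed with 21.1. A middle group held Ago2 (19.2), Dicer1 (18.8), Dgcr8 (18.7), Ago1 (18.7), Tarbp2 (18.4) and Prkra (18.3 FPKM). Ago4 (8.32) and Ago3 (5.66 FPKM) were lowest. Drosha lay above Xpo5, Xpo5 above Ago2, Prkra above Ago4 and Ago4 above Ago3 in 6 of 6 libraries. Within the middle group neighbours in the order were not separated: Ago2 exceeded Dicer1 in 5 libraries, Ago1 exceeded Tarbp2 in 4, and the other neighbours exceeded each other in 3. Among the 13215 rows tested, Drosha stood at the 77.0th percentile of mean level, Ago4 at the 36.5th and Ago3 at the 26.4th.

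**Figure D1:**
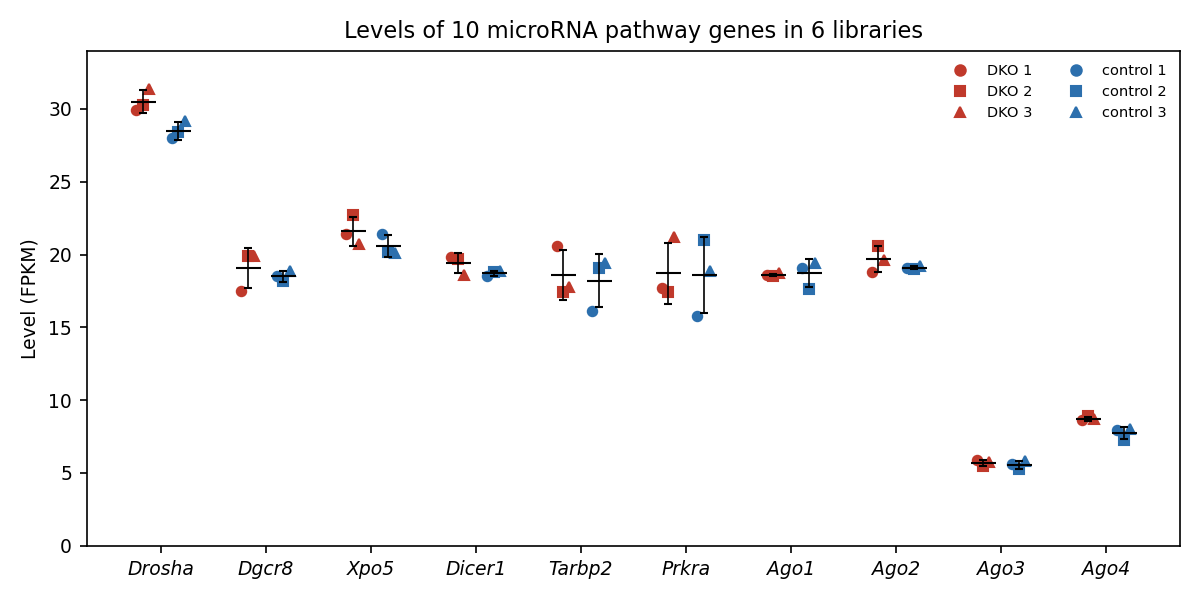
Level in FPKM (vertical axis, from 0) of the 10 genes in each library, with red points for libraries labelled DKO, blue points for control and the marker shape giving the replicate number. Black bars are the mean and SD of 3 libraries; Drosha lies at 28.0 to 31.4 FPKM, Ago4 and Ago3 below 10, and the red and blue points separate for Drosha and Ago4 alone.

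No gene of the 10 passed the test between the libraries labelled DKO and control. The count is 0 of 10 at a Benjamini-Hochberg adjusted p under 0.05 in limma, where 0.0227% of all 13215 rows passed (0.0151% on the higher side), and also 0 of 10 at an unadjusted p under 0.05, where 7.88% of all rows did. Adjusted p ran from 0.656 (Ago4) to 0.988 (Ago1), with Benjamini-Hochberg adjustment in limma over all rows. The log2 fold change, DKO minus control on log2(FPKM + 1), was above 0 for 9 genes and below 0 for 1, with a median of 0.04. Over all tested rows 49.5% were above 0 and the median was -0.0016. Each gene has its own 95% confidence interval from limma, and these are not joint over the 10 genes. The lowest limit was -0.24 (Prkra) and the highest 0.31 (Ago4). As percentages of FPKM + 1 these limits are -15.6% and 24.4%. For Drosha and Ago4, 2 of 10 genes, every library labelled DKO lay above every control library, a pattern that 6.96% of all tested rows showed (13.9% in either direction).

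**Figure D2:**
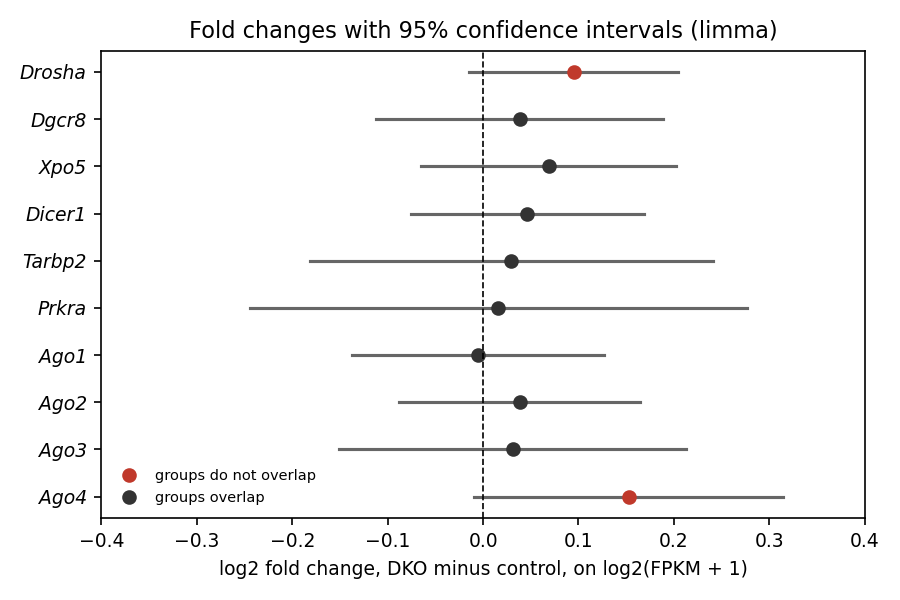
Log2 fold change of each gene (horizontal axis, DKO minus control on log2(FPKM + 1)) with its 95% confidence interval from limma; red points mark genes whose groups do not overlap. All 10 intervals cross 0, and the points lie between -0.0053 (Ago1) and 0.15 (Ago4).

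Of the Microprocessor pair, the groups did not overlap for Drosha, by a small step, and overlapped for Dgcr8. Of all tested rows, 6.96% had every library labelled DKO above every control library, as Drosha did. Drosha, the cutting enzyme (chromosome 15, 12824815 to 12935291), measured 29.9, 30.3 and 31.4 FPKM in DKO replicates 1 to 3 and 28.0, 28.4 and 29.2 FPKM in control replicates 1 to 3. Every DKO library was above every control library, though the gap to control replicate 3 was narrower than the range within either group. Its means were 30.5 ± 0.787 and 28.5 ± 0.609 FPKM (SD, n = 3 each), and the change fitted on log2(FPKM + 1) was 0.10 (SE 0.05). Its adjusted p was 0.696 in limma with Benjamini-Hochberg adjustment, and the exact permutation p was 0.10, the smallest that 3 against 3 can give. Dgcr8, its RNA-binding partner, measured 17.5, 19.9 and 19.9 FPKM in the libraries labelled DKO and 18.5, 18.2 and 18.9 FPKM in control. DKO replicate 1 was the lowest of the 6 and the other two DKO libraries the highest, so the groups overlapped (log2 fold change 0.04). Of the 50-base words of the longest Dgcr8 coding transcript, 8.15% recur in other genes, most in Gm49776 and Gm43555, which have no row. Reads could thus be shared. Trmt2a (9.63 to 10.8 FPKM) also overlaps Dgcr8 exons on the opposite strand. The ratio of Drosha to Dgcr8 levels, which carries the same limits, was 1.71, 1.52 and 1.58 in the libraries labelled DKO and 1.51, 1.56 and 1.54 in control. The control libraries kept this ratio within a narrow range, and DKO replicate 1 stood above all others (exact permutation p = 0.40 for the log2 ratio, 0.933 after Benjamini-Hochberg adjustment over 7 shares and ratios).

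Export and dicing genes showed overlapping groups throughout. Xpo5, the export receptor (chromosome 17, 46202782 to 46243598), measured 21.4, 22.7 and 20.7 FPKM in the libraries labelled DKO and 21.4, 20.2 and 20.1 FPKM in control. Control replicate 1 reached the level of DKO replicate 1, and the log2 fold change was 0.07 (95% interval -0.07 to 0.20). Xpo5 also hosts Mir693 in an intron, whose row is listed at 0 in all 6 libraries. Dicer1, the loop-cutting enzyme (chromosome 12, 104687742 to 104751952), measured 19.8, 19.7 and 18.6 FPKM in the libraries labelled DKO and 18.5, 18.8 and 18.9 FPKM in control. It was the steadiest of the 10 genes, with a coefficient of variation of 2.99% over the 6 libraries and a log2 fold change of 0.05 (95% interval -0.08 to 0.17). Dicer1 stood at 0.663, 0.651 and 0.592 of the Drosha level in the libraries labelled DKO and at 0.662, 0.661 and 0.646 in control. This ratio of the RNase III pair overlapped between the groups, with DKO replicate 3 lowest (exact permutation p = 0.700 for the log2 ratio).

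Both partners of Dicer varied more between libraries of 1 label than between the labels. Tarbp2, which encodes TRBP (chromosome 15, 102518192 to 102523676), measured 20.6, 17.4 and 17.8 FPKM in the libraries labelled DKO and 16.1, 19.1 and 19.4 FPKM in control. The highest and the lowest value both belonged to a replicate 1, on opposite sides, and the log2 fold change was 0.03 (95% interval -0.18 to 0.24). Prkra, which encodes PACT (chromosome 2, 76629898 to 76648015), measured 17.7, 17.4 and 21.2 FPKM in the libraries labelled DKO and 15.8, 21.0 and 18.9 FPKM in control. Its coefficient of variation of 11.4% was the largest of the 10, and the log2 fold change was 0.02 (95% interval -0.24 to 0.28). The sign of both fold changes turned when control replicate 1 was left out, to -0.05 for Tarbp2 and -0.09 for Prkra. The ratio of Tarbp2 to Prkra ran from 0.841 (DKO replicate 3) to 1.16 (DKO replicate 1) and spanned all control values (0.907 to 1.03; exact permutation p = 1.0 for the log2 ratio). Tarbp2 levels are also uncertain for another reason: 49.1% of the 50-base words of its longest coding transcript recur in the processed pseudogene Gm18584, which has no row, so reads could be shared.

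Of the 4 Argonaute genes, Ago4 alone had groups that did not overlap. Of all tested rows, 6.96% likewise had every library labelled DKO above every control library. Ago4 measured 8.62, 8.89 and 8.69 FPKM in the libraries labelled DKO and 7.98, 7.29 and 8.02 FPKM in control. The DKO libraries lay close together and above all control libraries, of which replicate 2 was lowest. The means were 8.73 ± 0.136 and 7.76 ± 0.409 FPKM (SD, n = 3 each), and the change fitted on log2(FPKM + 1) was 0.15 (SE 0.07). The adjusted p was 0.656 in limma with Benjamini-Hochberg adjustment, and the exact permutation p was 0.10. Ago4 had the smallest p of the 10 genes, at rank 1244 of the 13215 rows. Without control replicate 2 its fold change was 0.11.

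The neighbours of Ago4 on chromosome 4 overlapped between the groups. Ago1 measured 18.6, 18.5 and 18.7 FPKM in the libraries labelled DKO, inside the control values of 19.1, 17.6 and 19.4 FPKM. Its log2 fold change was -0.0053 with a 95% interval of -0.14 to 0.13. Ago3 measured 5.86, 5.46 and 5.75 FPKM in the libraries labelled DKO and 5.58, 5.27 and 5.81 FPKM in control, with overlapping groups and a log2 fold change of 0.03. Ago1 and Ago3 share 121 of their 50-base words, 1.69% of the Ago1 transcript, while Ago4 shares none with another gene. The flanking genes Tekt2 (0 to 1.27 FPKM) and Clspn (0.0865 to 0.289 FPKM) were too low to be tested, and the pseudogenes inside the cluster have no row.

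Ago2, the Argonaute that can slice a target, was level with Ago1. It measured 18.8, 20.6 and 19.6 FPKM in the libraries labelled DKO and 19.1, 19.0 and 19.2 FPKM in control. The control libraries lay within the DKO range, and the log2 fold change was 0.04 (95% interval -0.09 to 0.16). The end of Ago2 overlaps Chrac1 on the opposite strand (32.2 to 49.4 FPKM), and no source used here gives the strand setting of the authors' counting.

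The 4 Argonaute genes together gave 51.9, 53.5 and 52.8 FPKM in the libraries labelled DKO and 51.8, 49.2 and 52.4 FPKM in control. Their total thus overlapped between the groups, at 52.7 ± 0.784 against 51.1 ± 1.72 FPKM (SD, n = 3 each; exact permutation p = 0.20 on the log2 sum). The log2 difference of the totals was 0.04, and 0.02 without control replicate 2. Without rows of short RNAs it was 0.06, with an exact permutation p of 0.10. That setting also moved the median log2 fold change of all tested rows, from -0.0016 to 0.0160. A share within a library does not depend on how the library was scaled. Ago2 held 37.3% ± 1.13 of the total in the libraries labelled DKO and 37.4% ± 1.10 in control (SD, n = 3 each), and Ago1 held 35.4% ± 0.605 and 36.6% ± 0.664. Ago3 held 10.8% in both groups. The share of Ago4 was 16.6%, 16.6% and 16.5% in the libraries labelled DKO and 15.4%, 14.8% and 15.3% in control, with no overlap. Its difference of 1.39 percentage points had an exact permutation p = 0.10, and 0.700 after Benjamini-Hochberg adjustment over the 7 shares and ratios. The differences in the shares of Ago4 (1.22 to 1.51 points) and Ago1 (-1.62 to -0.91 points) kept their direction without each library in turn. Those of Ago2 and Ago3 did not. Shares are parts of 1 total, so a higher share of 1 gene lowers the others. The Ago1 level itself had a log2 fold change of -0.0053, which turned sign in 4 of 17 alternatives.

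**Figure D3:**
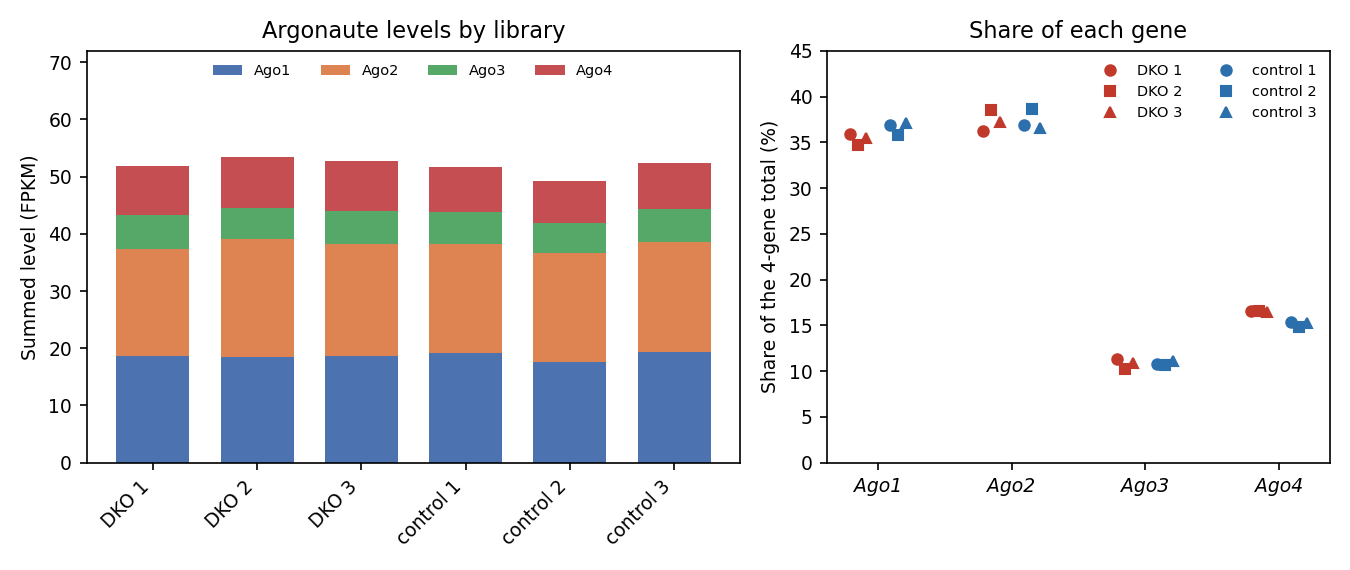
Left, the summed level of Ago1 to Ago4 in FPKM for each library, stacked from 0; right, the share of each gene in that total (percent), red for libraries labelled DKO and blue for control, with the marker shape giving the replicate number. The totals lie between 49.2 and 53.5 FPKM, and the shares overlap for Ago1, Ago2 and Ago3 but not for Ago4.

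Summed levels of 4 lists of retinal markers also did not overlap between the groups (exact permutation p = 0.10 each). Of all single tested rows, 13.9% showed no overlap, counting either direction. The summed level of 5 amacrine cell markers was 389 to 407 FPKM in the libraries labelled DKO and 343 to 364 in control. Sums for 5 cone markers (492 to 544 against 553 to 598 FPKM), 5 bipolar cell markers (643 to 668 against 698 to 737) and 6 ganglion cell markers (578 to 599 against 627 to 677) lay lower in the libraries labelled DKO. A sum follows its most abundant genes, and members of a list differed. Pcp2 (bipolar) measured 254 to 266 FPKM in the libraries labelled DKO and 283 to 320 in control. Nefl (ganglion) measured 214 to 235 against 246 to 286 FPKM. Grm6 (bipolar, 55.3 to 63.0 against 55.1 to 58.4) and Sncg (ganglion, 209 to 226 against 211 to 219) overlapped. The rod, Müller glia, cortical neuron, dividing cell, microglia, endothelium, blood and germ cell sums overlapped. Of the listed markers with a row, Mael alone is listed at 0 in all 6 libraries. The part of these shifts in the Drosha and Ago4 values was not tested.

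The rows most like Ago4 over the 6 libraries, by Pearson's r of log2(FPKM + 1), were Gprin3 (r = 0.994), Chchd4 (0.992), a mitochondrial import protein, and Prdm10 (0.990), a zinc-finger factor. All 3 were highest in the libraries labelled DKO, with log2 fold changes of 0.26, 0.24 and 0.20, and none passed (limma, Benjamini-Hochberg adjusted p 0.606, 0.477 and 0.625). The rows most like Ago2 were Ino80e (r = 0.990), a chromatin remodeller subunit, Prima1 (0.990), an anchor of acetylcholinesterase, and Mlxip (0.983), a glucose-responsive factor. These peaked in DKO replicate 2, as Ago2 did. Each r is the top of all tested rows over 6 points, and 101 rows exceeded 0.9 for Ago4 and 64 for Ago2, so they describe a ranking only.

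The wider pathway gave 0 genes past the threshold as well. Of 95 other tested genes on 6 pathway lists, 0 passed (limma, Benjamini-Hochberg) and 2 had an unadjusted p under 0.05, a lower share than the 7.88% of all rows. Their log2 fold changes split evenly, 48 above 0 and 47 below, with a median of 0.0046. Groups did not overlap in 7 genes on the higher side (6.96% of all rows) and 7 on the lower side (6.95% of all rows).

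Among nuclear processing factors, 10 of 15 other genes were above 0 (median 0.02). The 2 of smallest p were Hnrnpa2b1, an RNA-binding protein that takes part in primary microRNA processing, and Adar, the adenosine deaminase that edits double-stranded RNA. Hnrnpa2b1 measured 245, 240 and 266 FPKM in the libraries labelled DKO and 225, 221 and 232 FPKM in control, with no overlap. The change fitted on log2(FPKM + 1) was 0.15, at an adjusted p of 0.572 in limma with Benjamini-Hochberg adjustment. Adar measured 23.0 ± 1.21 and 21.1 ± 0.861 FPKM (SD, n = 3 each), with a log2 fold change of 0.12. The helicases Ddx5 and Ddx17, which assist the Microprocessor, were far more abundant than Drosha, at 449 to 548 and 368 to 441 FPKM, with log2 fold changes of -0.07 each.

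In the export and dicing list, 5 of 6 other genes were above 0 (median 0.05). Adarb2, a brain relative of the RNA-editing enzymes, had a log2 fold change of 0.15 and Rangap1, which drives the export cycle of Ran, 0.05. Ran itself, the switch that exportin-5 binds, measured 62.1 to 66.9 FPKM in the libraries labelled DKO and 63.5 to 68.5 FPKM in control.

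The list of precursor tailing and decay had the lowest median of the 6 lists (-0.05), with 4 of 11 genes above 0 and 7 below. Papd4, a nucleotidyltransferase that adds bases to small RNA ends, measured 12.3, 10.4 and 12.9 FPKM in the libraries labelled DKO and 13.3, 14.3 and 14.0 FPKM in control. Its groups did not overlap, and the change fitted on log2(FPKM + 1) was -0.22 (SE 0.08), at an adjusted p of 0.598 in limma with Benjamini-Hochberg adjustment. Parn, a deadenylase that trims RNA ends, measured 17.4 ± 0.763 and 18.9 ± 0.170 FPKM (SD, n = 3 each), with a log2 fold change of -0.12 and no overlap. Lin28a and Lin28b, which block let-7 processing in embryonic cells, lay at 0.498 to 0.845 and 0.582 to 0.944 FPKM and were too low to be tested.

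Of the proteins that load or accompany Argonaute, 13 of 29 other genes were above 0 and 16 below (median -0.01). The genes of smallest p were Rbm4, an RNA-binding protein, with a log2 fold change of 0.16, and Trim32, a ubiquitin ligase that binds Argonaute, with 0.13. Both missed the threshold (limma, Benjamini-Hochberg adjusted p 0.641 and 0.714). Among silencing effectors, 15 of 32 genes were above 0 and 17 below (median -0.0069), led by the deadenylase complex subunits Cnot3 (0.12) and Cnot7 (-0.10), of opposite sign. The GW182 genes that tie Argonaute to those effectors were expressed at a like height to Drosha: Tnrc6a at 26.5 to 30.6 FPKM, Tnrc6b at 32.4 to 35.5 and Tnrc6c at 23.7 to 27.1.

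Most genes of the PIWI branch of the Argonaute family, which acts with piRNAs in germ cells, lay under the level needed for testing. Piwil1, Piwil2 and Piwil4 reached at most 0.0369, 0.588 and 0.227 FPKM, and only Tdrd9 and Tdrkh of 12 listed genes were high enough to be tested (log2 fold changes 0.14 and -0.06). All 4 Argonaute genes of the microRNA branch lay above these 3 Piwil genes in every library.

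**Figure D4:**
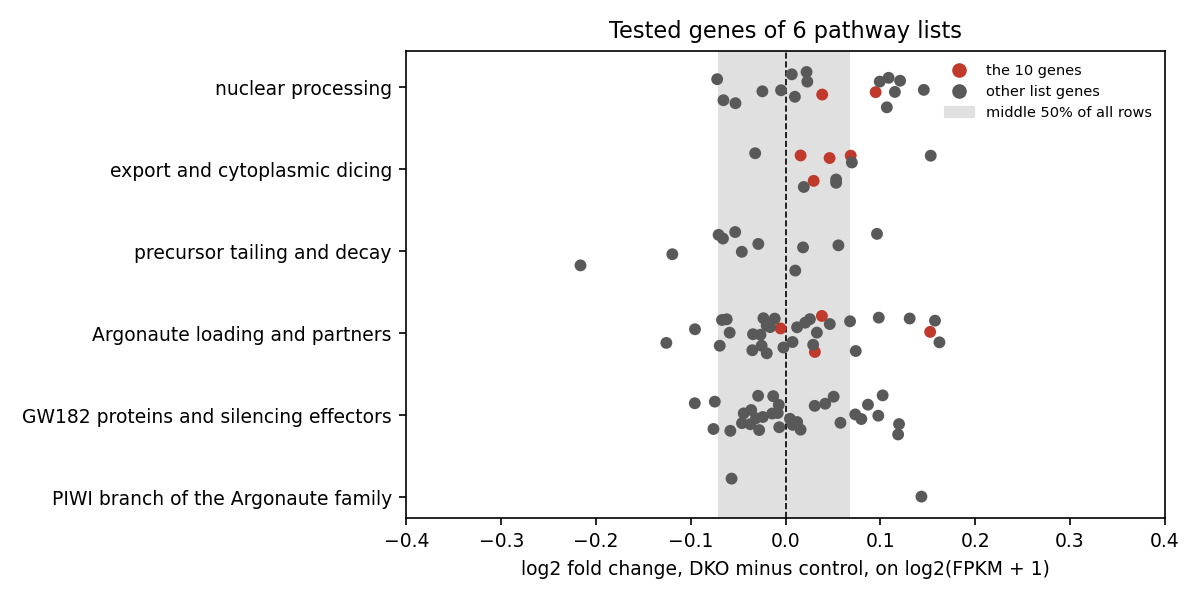
Log2 fold change (horizontal axis, DKO minus control on log2(FPKM + 1)) of each tested gene on the 6 pathway lists, red for the 10 genes described here and grey for the others; vertical scatter within a list has no meaning. The shaded band holds the middle 50% of all 13215 rows (-0.07 to 0.07), and the lowest point is Papd4 at -0.22.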

How the data were processed

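The authors deposited 1 value per gene symbol and library in FPKM, per the file headers. The tools were TopHat2 2.1.1, Bowtie2 and Cuffdiff 2.2.1, with the build mm10, per the submitters' processing notes. Their options, annotation and scaling are not given in the sources used. No read totals are used, so precision rests on 3 libraries per group.

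Groups follow the titles. The 13215 rows whose mean over the 6 libraries reached 1 FPKM were transformed to log2(FPKM + 1) and fitted in R 4.3.3 by limma 3.58.1 (lmFit, eBayes with a trend), with Benjamini-Hochberg adjustment across all genes and a threshold of 0.05. This scale understates changes of low genes. Totals, shares and ratios were compared with 2-sided exact permutation tests over the 20 assignments of libraries, in Python 3.11.15 with SciPy 1.17.1. The fit was tested on simulated data.

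Members, lists and rules were chosen with earlier results of these data known. Named list genes are those past the threshold, or the 2 of smallest p; further genes named for a level were picked once their values had been seen. Older symbols were matched through RefSeq synonyms. Loci come from GENCODE M21 (GRCm38), sequences from RefSeq on GRCm38.p6; 9 of 10 genes had a start region there. Whole 50-base words shared with other GENCODE transcripts were counted. The alternatives were other pseudocounts (0.1, 0.5), filters (none, 5 FPKM), scalings and limma options, removal of short RNA rows, a replicate block and leaving out each library. The search for miR-124 seed matches was not run.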

Additional observations from a re-analysis of the deposited data

How the results depend on the processing

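With 3 libraries per group and FPKM values without read totals, small differences are not resolved, and with 3 against 3 an exact permutation test cannot go below 0.1. The count of 0 of 10 genes past the adjusted threshold, and 0 of 95 other pathway genes, held in all 17 alternatives. With the replicate number as a block both counts were 0, with a smallest adjusted p among the 10 of 0.549 (limma, Benjamini-Hochberg). Libraries of 1 number deviated from their group means with correlations of 0.07, 0.0063 and 0.10. Between different numbers the correlations ran from -0.12 to 0.04, so the values of 0.07 and 0.10 were the highest, though small. The labels do not say that the numbers pair the samples, so the block was kept as an alternative only. Ago4 stayed between 0.11 and 0.17 on the log2 scale and had an unadjusted p under 0.05 in 2 alternatives, and Drosha stayed between 0.07 and 0.11 with 1. Between 8 and 10 of the 10 genes were above 0 in each alternative, and those near 0 turned sign. With arrayWeights Tarbp2 was at -0.0167, Prkra at -0.0369 and Ago1 at 0.0049, and without short RNA rows Ago1 was at 0.0129. Leaving out single libraries gave ranges of -0.0512 to 0.0764 for Tarbp2, -0.0902 to 0.10 for Prkra, -0.0459 to 0.0210 for Ago1, -0.0006 to 0.0591 for Ago3, -0.16 to 0.0073 for Tdrkh and -0.0032 to 0.15 for Mlxip. The same ranges were -0.70 to 0.52 percentage points for the Ago2 share, -0.30 to 0.24 for the Ago3 share, -0.10 to 0.13 for the log2 ratio of Tarbp2 to Prkra and -0.0809 to 0.0008 for that of Dicer1 to Drosha. Values that kept their sign also moved by over 1.5 times without 1 library: Dgcr8 ranged from 0.0087 to 0.10, Ago2 from 0.0070 to 0.07, Xpo5 from 0.03 to 0.10, Dicer1 from 0.03 to 0.07, and the log2 ratio of Drosha to Dgcr8 from 0.01 to 0.10. Among other genes Papd4 ranged from -0.27 to -0.13, Adar from 0.08 to 0.15, Adarb2 from 0.10 to 0.24, Rangap1 from 0.02 to 0.09, Trim32 from 0.08 to 0.19, Tdrd9 from 0.05 to 0.23, Ino80e from 0.0006 to 0.05 and Prima1 from 0.01 to 0.35. The cause was not tested. The seed search and its 8-base alternative were not run.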

Other observations

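The 10 genes varied little from library to library. Their median coefficient of variation over the 6 libraries was 4.49%, against 8.14% over all 13215 tested rows, many of which are lower in level. Dicer1 (2.99%), Ago1 (3.29%) and Ago2 (3.30%) were the steadiest, at the 4.33rd, 6.01st and 6.08th percentile of all rows. The Dicer partners Tarbp2 (8.70%) and Prkra (11.4%) were the most variable, above the median of all rows, and their highest library was 1.28 and 1.34 times the lowest. Nothing in the labels sets the libraries of 1 group apart. In the values, short RNA rows held 6.357% of the summed FPKM in control replicate 3. In the other libraries they held 1.764% to 3.126%.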
